A study of Mus musculus with 7 samples.

Results

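The Fc receptor genes of myeloid cells in mouse epidermis were followed across the cells that rebuild the Langerhans cell network after bone marrow transplantation (BMT). The list holds 7 genes chosen by symbol, Fcgr1, Fcgr2b, Fcgr3, Fcgr4, Fcer1g, Fcer1a and Fcgrt. Of these, 6 have a row among the 15155 genes of the donor table, 5 among the 23737 of the host table and 7 among the 26383 of the keratinocyte table. Fcer1a has no donor or host value here, and Fcgr4 has no host value here. All 6 donor members passed the filter on low values. RNA was counted in single cells with unique molecular identifiers (UMIs) by a droplet kit that reads the 5′ end of transcripts. The recipients were male C57BL/6 mice carrying CD45.2, which after lethal irradiation were given marrow of female C57BL/6 donors carrying CD45.1, and epidermis was taken 3 weeks later. Donor CD11b+MHCII+ cells came as 3 libraries labelled BMT and 1 labelled BMT plus T cells (the T-labelled library here). Host CD11b+MHCII+ cells came as 1 BMT library, and CD45- keratinocytes as 1 library under each label. The design text gives T cells to all recipients, namely CD4 cells together with Matahari CD8 cells that recognise a male antigen, whereas the labels name T cells for part of the libraries only, so groups are compared by label. The study pooled the epidermis of several mice for each sort and combined separate sorting experiments. No label ties a library to a sort or to a number of mice, so p-values do not measure the spread between mice. Between clusters they rest on a spread for each gene that is pooled over all clusters and libraries in a single fit. They do not measure how evenly any single difference repeats over the libraries. Between labels they rest on the spread between the libraries. Before sorting, the cells were incubated with an antibody that blocks Fc receptors.

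Fc receptors bind the constant region of antibodies. In mice, Fcgr1, Fcgr3 and Fcgr4 encode activating IgG receptors that signal through the FcRγ chain encoded by Fcer1g, whose activation motif recruits the kinase Syk, while Fcgr2b encodes the inhibitory IgG receptor, which recruits the phosphatase SHIP1. Fcgrt encodes the heavy chain of the neonatal receptor FcRn, which recycles IgG inside cells, and Fcer1a encodes the binding chain of the high-affinity IgE receptor of mast cells and basophils. Langerhans cells are the antigen-presenting cells of the epidermis, and in this model monocytes replace them as monocyte-derived Langerhans cells (mLC).

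In the mouse assembly GRCm38.p6, RefSeq places 5 of the 7 genes on chromosome 1. Fcgr2b (170960558 to 170976071, minus strand), Fcgr4 (171018926 to 171029761, plus strand), Fcgr3 (171051169 to 171065915, minus strand) and Fcer1g (171229572 to 171234349, minus strand) lie within one stretch, and Fcer1a lies further along (173221269 to 173227232, minus strand). Fcgr1 lies on chromosome 3 (96282909 to 96293969, minus strand) and Fcgrt on chromosome 7 (45092993 to 45103822, minus strand). Fcgr2b and Fcgr3 are close paralogs in the part that binds antibody, so reads shared between them could have been split by the authors' counting, and this was not tested.

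The donor libraries held 2572, 8382 and 226 cells (BMT replicates 1 to 3) and 719 cells (T-labelled), with a median of 7021.5 to 13387 UMIs per cell. In the host library there were 781 cells at a median of 4376 UMIs, with a median of 14.0% mitochondrial UMIs against 1.39 to 2.20% in the other libraries. Among the donor cells, 16 cells shared a barcode with a cell of another donor library. The 9 donor clusters were used as the authors named them. Markers of Mono and resident mLC went with the names, while some other marker lists were shared between clusters. The summed level of Cd207, Epcam and Mfge8 was 59.9 to 85.6 UMIs per 10000 (CP10K) in resident mLC and 0.416 to 1.55 in Mono, the classical monocyte cluster. The summed level of Plac8, Ly6c2, Lyz2 and Chil3 was 98.0 to 185 in Mono and 1.70 to 1.98 in resident mLC. The S100a+ monocytes had at least 20 cells in BMT replicate 2 only, and there 4 neutrophil markers summed to 44.3 CP10K, against at most 0.846 in any other cluster with 20 cells. The mast cell and basophil markers with a donor row, 2 of 6 and 1 of 2, summed to at most 0.657 and 0.168 CP10K in any such cluster. The part of these cells in the values below was not tested.

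Each member's level was the mean CP10K over the cells of 1 library and 1 cluster. The activating receptors were highest in monocytes and lowest in resident mLC. Fcgr1, the high-affinity IgG receptor, was at 2.74, 3.21 and 3.54 CP10K in Mono of BMT replicates 1 to 3 and at 3.27 in the T-labelled library. In resident mLC it was at 0.142, 0.189 and 0.0646 CP10K in BMT replicates 1 to 3, with 0.164 in the T-labelled library. All 4 Mono values lay above all 4 resident values. The resident level rested on 9, 174, 10 and 87 UMIs in the same order of libraries. Its mean was highest in Hmox1+ monocytes, at 5.08 ± 1.09 CP10K (SD, n = 3), followed by ISG monocytes, a cluster named for interferon-stimulated genes, at 3.57 ± 1.19 (n = 3) and Mono at 3.19 ± 0.334 (n = 4). The ranges of Hmox1+ and ISG monocytes overlapped, as did those of ISG monocytes and Mono.

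Fcgr3, a low-affinity activating IgG receptor, was at 7.88, 6.16 and 6.28 CP10K in Mono of BMT replicates 1 to 3 and at 6.34 in the T-labelled library. In resident mLC the values were 0.426, 0.789, 0.610 and 0.695 CP10K in the same order. The groups did not overlap, and the highest resident value was well under the lowest of Mono. Mrc1+ macrophages stood second with 5.52 ± 0.676 CP10K (SD, n = 4), overlapping Mono, and MC, the converting monocyte-derived cells that the study places on the way to mLC, held 3.59 ± 0.609 (n = 3). Cycling mLC followed at 1.26 ± 0.506 (n = 3) and migrating mLC at 1.08 ± 0.259 (n = 2), with overlapping ranges.

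Fcgr4, an activating IgG receptor of monocytes and neutrophils, was at 1.36, 1.80 and 1.68 CP10K in Mono of BMT replicates 1 to 3 and at 0.707 in the T-labelled library. In resident mLC it was at 0.0384, 0.0549, 0.0348 and 0.0180 CP10K, from 5, 57, 5 and 10 UMIs. The groups did not overlap, but a level on so few UMIs is imprecise. The single library of S100a+ monocytes, where the neutrophil markers were also high, held 1.68 CP10K.

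Fcer1g, the chain that all 3 activating receptors need, was at 48.4, 37.7 and 46.8 CP10K in Mono of BMT replicates 1 to 3 and at 40.7 in the T-labelled library. Resident mLC held 13.7, 12.9 and 14.2 CP10K in the BMT replicates and 15.6 in the T-labelled library. The groups did not overlap, and the 4 resident values lay close together. Cycling mLC at 14.3 ± 2.21 CP10K (SD, n = 3) and migrating mLC at 14.5 ± 2.45 (n = 2) overlapped the resident range.

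Fcgr2b, the inhibitory receptor, was at 14.5, 15.1 and 9.68 CP10K in Mono of BMT replicates 1 to 3 and at 8.15 in the T-labelled library. Resident mLC held 3.89, 4.504 and 4.53 CP10K in the BMT replicates and 3.69 in the T-labelled library. The groups did not overlap. Within Mono, BMT replicates 1 and 2 were above the other 2 libraries. Across ISG monocytes, Mrc1+ macrophages, S100a+ monocytes, Mono and MC its mean stayed between 11.3 and 13.3 CP10K, with overlapping ranges between neighbours.

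Fcgrt, the FcRn heavy chain, followed another order. In Mono it was at 0.0931, 0.0862 and 0.493 CP10K in BMT replicates 1 to 3, with 0.607 in the T-labelled library. In resident mLC it was at 0.155, 0.222 and 0.370 CP10K in BMT replicates 1 to 3, with 0.204 in the T-labelled library. The groups overlapped, since Mono split into 2 low and 2 high libraries. The highest mean was that of MC, at 0.393 ± 0.121 CP10K (SD, n = 3), and the lowest that of Hmox1+ monocytes, at 0.0700 ± 0.0639 (n = 3), where BMT replicate 1 had 0 UMIs in 24 cells, which allows a level of up to 0.169 CP10K over their summed UMIs.

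**Figure D1:**
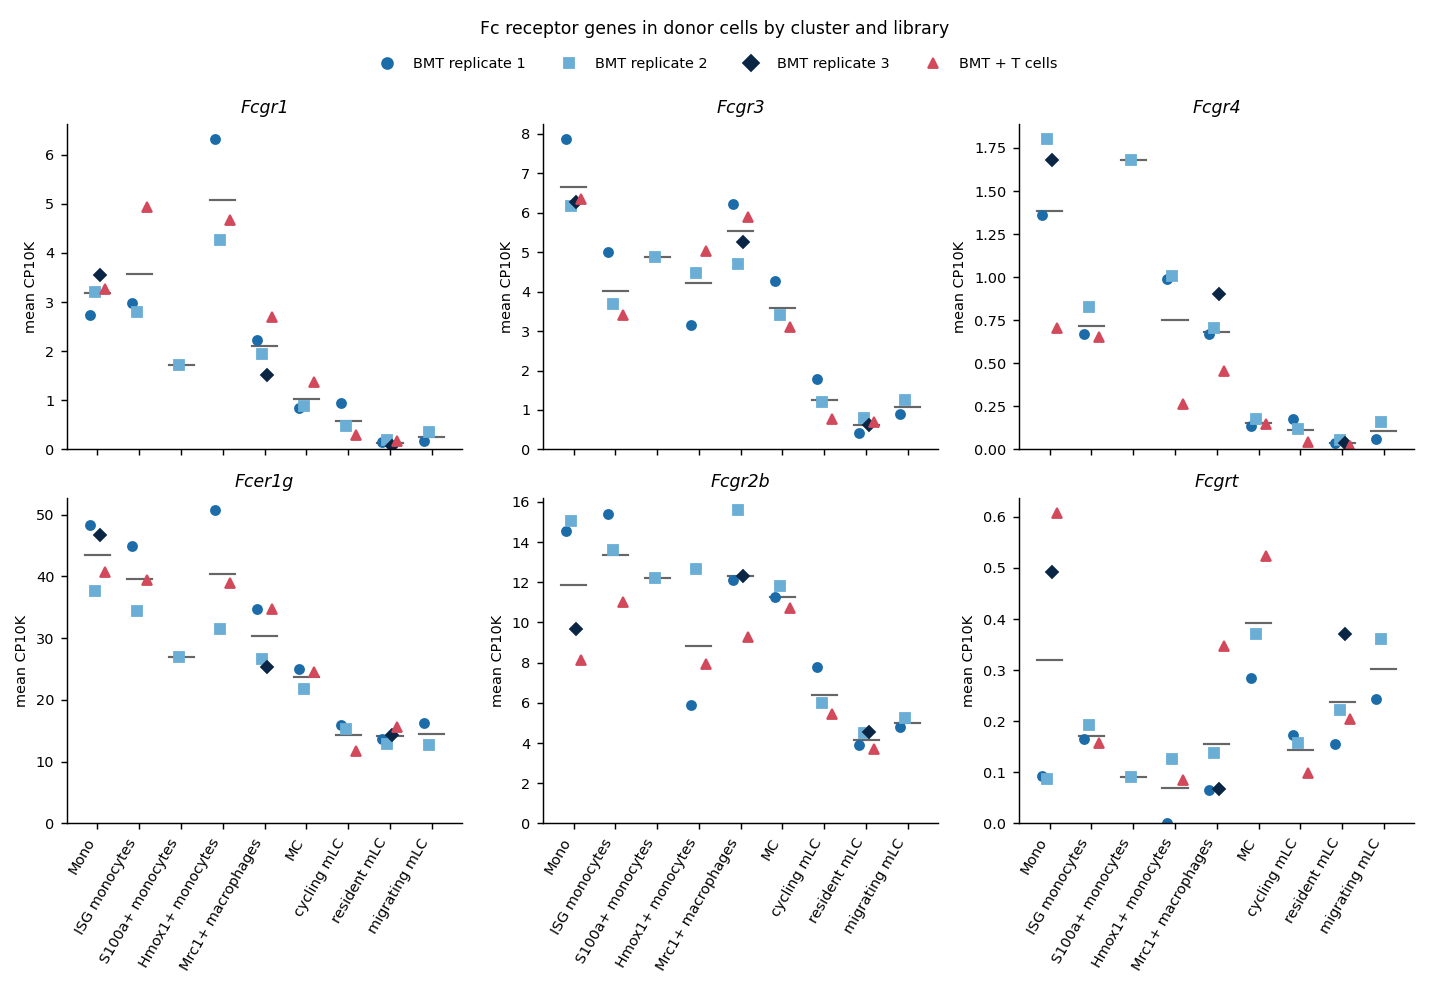
Mean CP10K (linear axis from 0) of the 6 Fc receptor genes with a donor value, by annotated cluster; each point is 1 library with at least 20 cells of the cluster, and grey lines are means over libraries. Fcgr1, Fcgr3, Fcgr4, Fcer1g and Fcgr2b had their lowest mean in resident mLC, while Fcgrt had its highest mean in MC and split between libraries in Mono.

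Resident mLC were compared with Mono, the ends of the path that the study follows. The test was limma's moderated test on log2(CP10K + 0.1) of library-by-cluster means, with library as a block and p-values adjusted by the Benjamini-Hochberg method over 7267 genes. Clusters were defined by the authors on the same cells, so these differences describe the annotation. Of the 6 members tested, 5 fell and none rose, in a comparison where 32.7% of all genes passed at an adjusted p under 0.05. The median difference of the members was -2.42 on the log2 scale, against 0.14 for all genes tested. Fcgr1 fell by 3.80 (SE 0.26, limma adjusted p 2.41e-11), Fcgr4 by 3.38 (SE 0.23, adjusted p 3.87e-11) and Fcgr3 by 3.23 (SE 0.21, adjusted p 1.36e-11), each in 4 of 4 libraries. Fcer1g fell by 1.61 (SE 0.12, limma adjusted p 1.32e-10) and Fcgr2b by 1.45 (SE 0.17, adjusted p 2.72e-07), again in 4 of 4 libraries. On this scale, which understates the change of low genes, resident mLC were 13.9-fold lower for Fcgr1, 9.39-fold for Fcgr3 and 10.4-fold for Fcgr4, but 3.06-fold for Fcer1g and 2.73-fold for Fcgr2b. Fcgrt differed by -0.09 (SE 0.34, limma adjusted p 0.869) and did not pass. By library its difference was 0.40, 0.79 and -0.34 for BMT replicates 1 to 3 and -1.22 for the T-labelled library, without which the fitted value was 0.29.

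Against Mrc1+ macrophages, the macrophage-like cells found beside mLC in the epidermis, 5 of 6 members were again lower, where 31.5% of all genes passed. Both comparisons use the same resident libraries. Fcgr1 fell by 3.20 (limma adjusted p 6.56e-10), Fcgr3 by 2.96 (adjusted p 8.20e-11), Fcgr4 by 2.50 (adjusted p 8.43e-09), Fcgr2b by 1.53 (adjusted p 1.36e-07) and Fcer1g by 1.09 (adjusted p 1.13e-07), each in 4 of 4 libraries with no overlap. Fcgrt differed by 0.50 (limma adjusted p 0.272), with a higher value in resident mLC in 3 of 4 libraries, and passed with voom on summed UMIs (0.79, limma adjusted p 0.0406). Over all genes, 22.7% had ranges that did not overlap between these clusters, and 26.9% between resident mLC and Mono.

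Migrating mLC were named by the study for markers of maturation and sorted from the epidermis like the rest. At least 20 of these cells were found in BMT replicates 1 and 2 only. They were compared with resident mLC in the single fit of all library-by-cluster means, so resident mLC of the other libraries also entered the estimates. None of the 6 members passed limma's test, where 20.1% of all genes did, and 1 of them, Fcgr3, had an unadjusted p under 0.05, against 33.5% of all genes. Fcgr3 stood at 0.898 and 1.26 CP10K in migrating against 0.426 and 0.789 in resident mLC of BMT replicates 1 and 2. Its log2 difference was 0.92 and 0.62 within these libraries and 0.65 in the fit (SE 0.26, limma adjusted p 0.0824). With at least 50 cells required, Fcgr3 (0.69, limma adjusted p 0.0230) and Fcgr1 (0.61, adjusted p 0.0448) passed, and with voom on summed UMIs Fcgr1 (0.93, adjusted p 0.0431) and Fcgr4 (1.07, adjusted p 0.0131) did. Under these settings 33.6 and 51.7% of all genes passed. Fcer1g differed by 0.02 (limma adjusted p 0.956) and Fcgr2b by 0.14 (adjusted p 0.681).

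Between the monocyte-side clusters the members moved less. Mrc1+ macrophages were lower than Mono in 2 of 6 members, where 7.86% of all genes passed. Fcgr4 fell by 0.88 (limma adjusted p 0.0181) and Fcer1g by 0.52 (adjusted p 0.00659), each in 4 of 4 libraries, but neither passed without BMT replicate 1 or without BMT replicate 2, and Fcer1g did not pass without BMT replicate 3 (limma adjusted p 0.0681 to 0.0904 for Fcer1g, and 0.0983 and 0.260 for Fcgr4 without replicates 1 and 2). Fcgr1 differed by -0.60 (limma adjusted p 0.153) although the ranges of its levels, 1.52 to 2.70 and 2.74 to 3.54 CP10K, did not overlap, as was the case for 6.58% of all genes. On the mean of the deposited log values it passed (-0.45, limma adjusted p 0.0233).

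MC were lower than Mono in 4 of 6 members, where 7.14% of all genes passed. Fcgr4 fell by 2.41 (limma adjusted p 6.11e-07), Fcgr1 by 1.65 (adjusted p 3.63e-04), Fcgr3 by 0.90 (adjusted p 0.0145) and Fcer1g by 0.88 (adjusted p 7.48e-05), each in 3 of 3 libraries. Fcgr3 did not pass without BMT replicate 2 (limma adjusted p 0.195), without the T-labelled library (adjusted p 0.108) or without the filter on low values (adjusted p 0.0593). Fcgr2b stood at 11.3 ± 0.540 CP10K in MC (SD, n = 3) and 11.9 ± 3.46 in Mono (n = 4), a difference of -0.04 (SE 0.19, limma adjusted p 0.953). Fcgrt stood above Mono in 2 of 3 libraries, with a difference of 0.55 (SE 0.37, limma adjusted p 0.481), and passed with voom (1.30, adjusted p 0.0137). MC carried Langerhans markers at 15.0 to 18.2 CP10K, between Mono and resident mLC.

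Interferon is known to induce Fcgr1 in myeloid cells, and ISG monocytes were set against Mono. No member passed limma's test, where 2.38% of all genes did, and 2 had an unadjusted p under 0.05, Fcgr3 and Fcgr4, against 10.6% of all genes. Fcgr1 was at 2.98, 2.80 and 4.94 CP10K in ISG monocytes of BMT replicate 1, BMT replicate 2 and the T-labelled library respectively, a difference of 0.03 (SE 0.28, limma adjusted p 0.996). It was higher than in Mono in 2 of 3 libraries, while the summed level of Isg15, Ifit2 and Ifit3 was 14.9 to 21.0 CP10K in ISG monocytes and 4.44 to 7.64 in Mono. Fcgr3 differed by -0.74 (SE 0.23, limma adjusted p 0.0974), with lower values in 3 of 3 libraries and no overlap of the ranges, as for 10.5% of all genes. It passed with a pseudocount of 1, at least 50 cells, the mean of the deposited log values, voom, or without BMT replicate 1 (limma adjusted p 0.0170 to 0.0476). Fcgr4 passed with the deposited log values (limma adjusted p 0.0177) and with voom (adjusted p 0.00148).

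**Figure D2:**
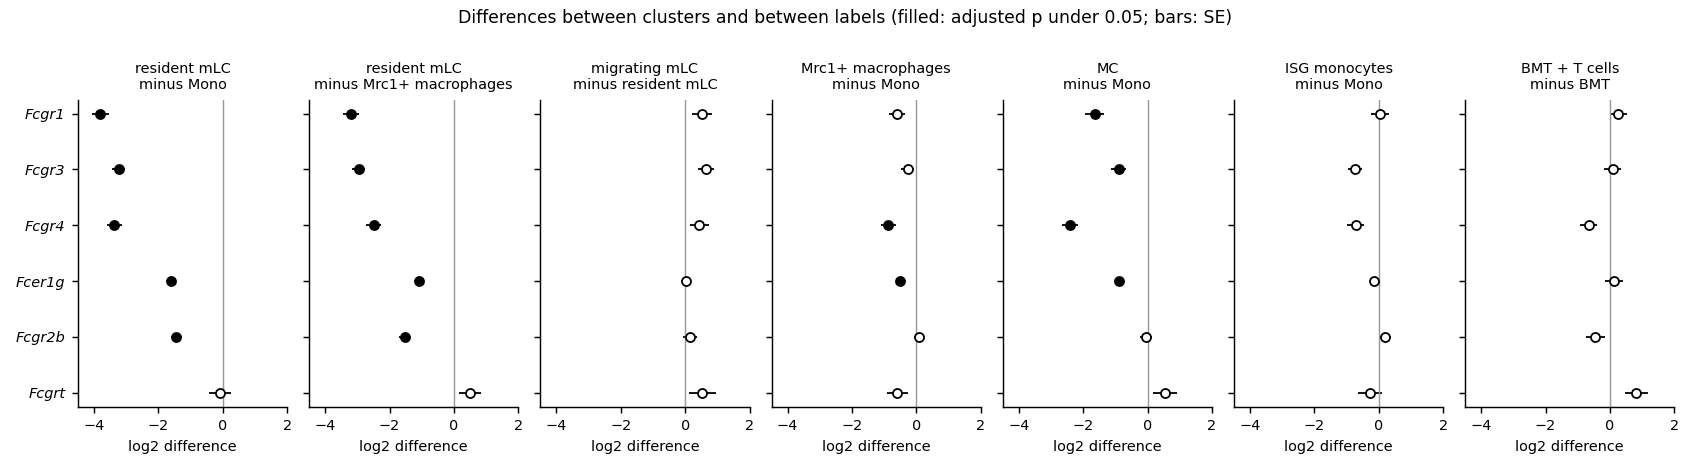
Fitted log2 differences (horizontal axis) of the 6 members for the 6 pairs of clusters and for the labels; points are limma estimates, bars are their standard errors, and filled points passed at an adjusted p under 0.05. The members that passed are all left of 0, with 5 in each comparison of resident mLC with Mono or Mrc1+ macrophages.

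The balance of activating to inhibitory receptor was followed as the log2 ratio of Fcgr3 to Fcgr2b within a library and cluster. Its change between clusters is read here, not its size, since levels of different genes are not on a common scale. In Mono the ratio was -0.88, -1.28 and -0.62 in BMT replicates 1 to 3 and -0.36 in the T-labelled library. In resident mLC it was -2.92, -2.37, -2.71 and -2.25 in the same order, below every Mono value. The change from Mono to resident mLC was -1.78 ± 0.46 (SD, n = 4), or a 3.44-fold shift away from Fcgr3, and it was below 0 in 4 of 4 libraries. The exact two-sided sign-flip permutation gave p = 0.125, the smallest that 4 libraries allow, so this design could not pass 0.05. Against Mrc1+ macrophages the change was -1.43 ± 0.55, from -1.97 to -0.67, with the same exact permutation p of 0.125, and 2 such comparisons were made. MC at -1.63 ± 0.22 (n = 3) and ISG monocytes at -1.71 ± 0.13 (n = 3) lay below every Mono value, and cycling mLC lay at -2.31 ± 0.31 (n = 3).

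**Figure D3:**
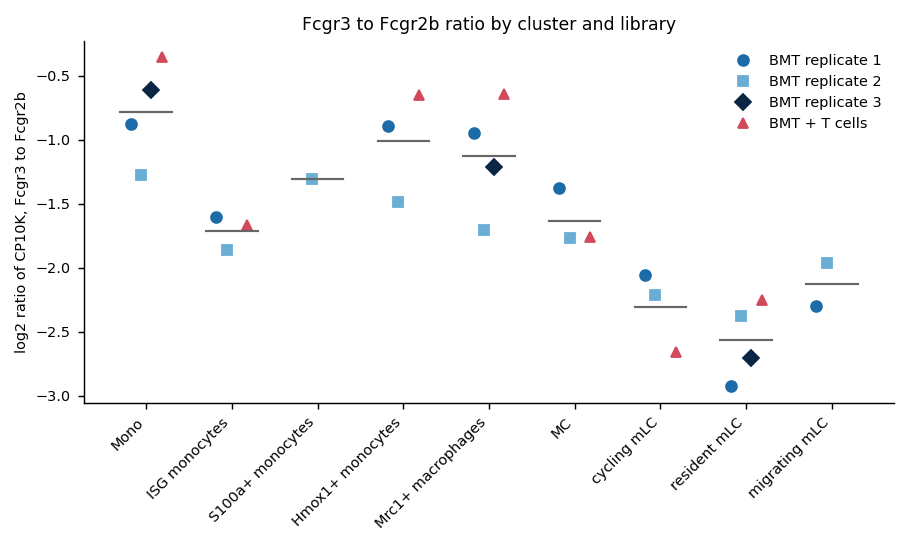
Log2 ratio of mean CP10K of Fcgr3 to Fcgr2b (0.1 added to each) by cluster; points are libraries with at least 20 cells and grey lines are means. All 4 resident mLC points, from -2.92 to -2.25, lie below all 4 Mono points, from -1.28 to -0.36.

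Detection in single cells was compared too. Cells were thinned to 2000 UMIs, since median depth per library ran from 5382 to 11693 UMIs in Mono and from 7343 to 18027 in resident mLC, and shallower cells were left out (182, 770 and 38 of BMT replicates 1 to 3 and 87 of the T-labelled library). Fcer1g was found in 99.8% ± 0.230 of Mono and 92.8% ± 3.79 of resident mLC (SD, n = 4). Fcgr2b was found in 82.4% ± 6.73 against 52.5% ± 5.14, and Fcgr3 in 68.0% ± 6.07 against 10.9% ± 1.13. Fcgr1 was found in 41.2% ± 2.38 against 2.15% ± 1.49 and Fcgr4 in 21.5% ± 5.78 against 1.07% ± 0.872. The libraries of Mono and resident mLC did not overlap for any of these 5 genes. Fcgrt was found in 5.46% ± 5.56 of Mono and 3.64% ± 2.68 of resident mLC, with overlapping libraries. By mean CP10K, 26.9% of all genes did not overlap between these clusters, and the share by detection was not counted. Without thinning the mean shares were 73.0% against 9.47% for Fcgr1, 89.8% against 34.5% for Fcgr3, 42.6% against 3.73% for Fcgr4 and 93.3% against 79.0% for Fcgr2b. For background, keratinocytes, which should lack these receptors, held a UMI of Fcgr3 in 0.176 and 0.193% of cells, of Fcer1g in 0.423 and 0.463%, of Fcgr1 and Fcgr2b in 0 of 2836 and 0 of 2590 cells, which allows up to 0.106 and 0.116% of cells. Their median depths were 8895.5 and 8834 UMIs.

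Receptors were also counted within the same cell. Of thinned donor cells with a UMI of Fcgr1, Fcgr3 or Fcgr4, 99.3, 97.8, 99.1 and 99.3% also held Fcer1g in BMT replicates 1 to 3 and the T-labelled library. Of all thinned donor cells, 97.3, 94.4, 97.9 and 95.7% did in the same order, close to the shares above. Among Mono with an Fcgr2b UMI, 13.7, 16.2, 15.0 and 20.5% held no UMI of an activating receptor in the same order of libraries. Among resident mLC with an Fcgr2b UMI, 77.3, 80.1, 82.1 and 84.6% held none, above every Mono value. MC lay between, with 35.6 and 46.8% in BMT replicates 1 and 2 and 37.5% for the T-labelled one. A cell without a UMI may still express the gene, and without thinning the resident shares were 39.5 to 64.2% and the Mono shares 3.45 to 4.29%. Counts over all thinned cells of a cluster follow in the same order of libraries. An activating UMI was held by 13 of 86, 169 of 1127, 6 of 47 and 33 of 275 resident mLC. In Mono, 206 of 240, 442 of 527, 65 of 79 and 45 of 57 held one. So the shares of Fcgr2b cells without one were near those of all cells in their cluster.

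**Figure D4:**
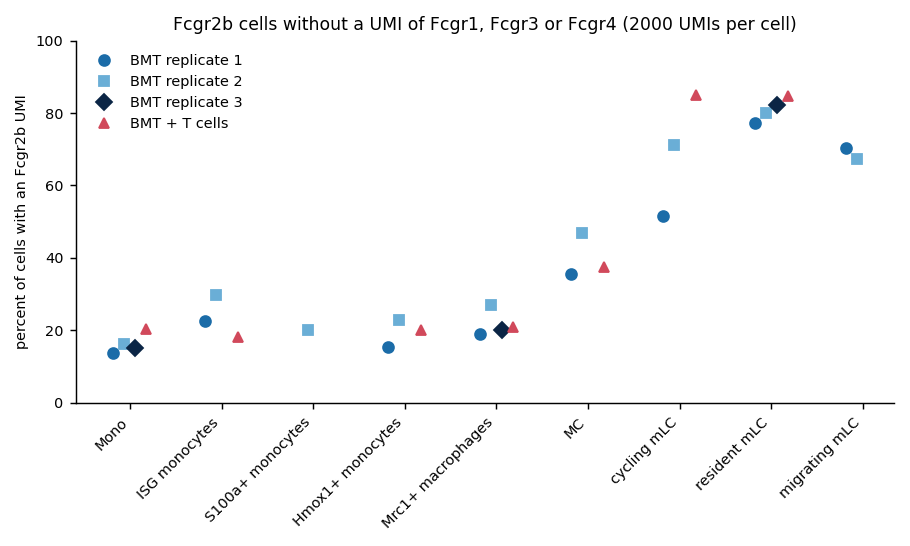
Percent of cells with an Fcgr2b UMI that held no UMI of Fcgr1, Fcgr3 or Fcgr4, after thinning each cell to 2000 UMIs, by cluster; points are libraries with at least 20 thinned cells. Resident mLC lie between 77.3 and 84.6% and Mono between 13.7 and 20.5%, near the shares among all thinned cells of those clusters.

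The patterns of the members across the 27 library-by-cluster means were compared after centring each library. The points share libraries and clusters, so the coefficients are a description. Pearson's r among Fcgr1, Fcgr3, Fcgr4 and Fcer1g was 0.88 to 0.95, and Fcgr2b was closest to Fcgr3, at 0.90. Fcgrt was at -0.33 to -0.12 with the other 5. Over all genes tested, the patterns most like Fcgr1 were Shisa5 (0.96), Slc7a8 (0.96) and C3ar1 (0.95), a complement receptor. Those most like Fcgr3 were Cmklr1 (0.98), a chemerin receptor, Pla2g7 (0.96) and Clec12a (0.95), an inhibitory lectin. Those most like Fcgr4 were Ly6c2 (0.94), the marker of classical monocytes, Clec12a (0.93) and Ctsc (0.92), a lysosomal protease. Fcer1g was most like Shisa5 (0.96), Npc2 (0.95) and Fcgr1 (0.95), Fcgr2b like Smpdl3b (0.91), Cmklr1 (0.91) and Tgfbi (0.90), and Fcgrt like Emc9 (0.84), Guk1 (0.79) and Rgs10 (0.78).

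Since the receptor genes that fell furthest were the activating chains, the 250 bases before their RefSeq starts are shown beside those of Fcgr2b (GRCm38.p6, written 5′ to 3′ in the direction of the gene). Capitals mark matches on either strand to GAGGAA, a form that the ETS factor PU.1 can bind in myeloid genes. They also mark matches to TTCNNNGAA, the site form bound by STAT factors after interferon-gamma. For Fcgr3 the table lists a pair of starts inside the gene's span, and the first is used.
Fcgr1, chr3:96293970-96294219, minus strand: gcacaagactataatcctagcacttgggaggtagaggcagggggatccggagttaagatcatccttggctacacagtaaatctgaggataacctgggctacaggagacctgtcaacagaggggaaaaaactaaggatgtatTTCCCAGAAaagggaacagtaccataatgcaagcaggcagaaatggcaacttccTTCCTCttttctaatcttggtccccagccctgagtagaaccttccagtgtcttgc
Fcgr3, chr1:171059404-171059653, minus strand: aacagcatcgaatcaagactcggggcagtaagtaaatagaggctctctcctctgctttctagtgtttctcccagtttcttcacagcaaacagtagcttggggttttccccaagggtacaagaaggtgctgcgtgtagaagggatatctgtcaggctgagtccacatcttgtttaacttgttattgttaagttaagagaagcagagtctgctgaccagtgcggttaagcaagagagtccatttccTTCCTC
Fcgr4, chr1:171018676-171018925, plus strand: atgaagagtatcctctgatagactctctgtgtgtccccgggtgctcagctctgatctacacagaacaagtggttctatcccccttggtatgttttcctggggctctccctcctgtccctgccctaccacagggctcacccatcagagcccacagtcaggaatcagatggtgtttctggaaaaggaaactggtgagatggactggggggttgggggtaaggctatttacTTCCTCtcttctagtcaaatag
Fcgr2b, chr1:170976072-170976321, minus strand: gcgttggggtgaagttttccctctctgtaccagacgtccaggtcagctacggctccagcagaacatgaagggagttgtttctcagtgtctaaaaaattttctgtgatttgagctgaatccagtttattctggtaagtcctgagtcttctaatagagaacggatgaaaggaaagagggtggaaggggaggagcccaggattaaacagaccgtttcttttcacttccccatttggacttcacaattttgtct
GAGGAA was matched once in each activating gene, each time on the opposite strand. The match lay 55 to 50 bases before the start in Fcgr1, 6 to 1 in Fcgr3 and 22 to 17 in Fcgr4. GAGGAA was matched 0 times in Fcgr2b, Fcer1g and Fcgrt and once in Fcer1a. The shorter GGAA within it was not searched for, and it does stand in the windows of Fcgr2b and Fcer1g. The STAT form was matched once, 109 to 101 bases before the start of Fcgr1, and in no other member. Over 27025 genes, 23.1% of windows of this length held GAGGAA and 7.18% the STAT form, and the matches do not overlap each other. These are letters in a window, and no binding was measured.

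The signalling genes around the receptors were taken as lists. Of 27 genes downstream of activating receptors, 24 were tested between resident mLC and Mono by limma. There 14 passed, 11 lower and 3 higher in resident mLC, with a median log2 difference of -0.14 against 0.14 for all genes, of which 32.7% passed. The lower genes with the largest differences were Rac2 (-3.46, limma adjusted p 8.96e-13), a GTPase of the phagocyte oxidase, Prkcd (-1.68, adjusted p 1.23e-07), protein kinase C delta, and Pik3cd (-1.28, adjusted p 6.01e-04), a leukocyte PI3-kinase. The higher ones were Card9 (2.47, limma adjusted p 3.42e-08), the adaptor that links Syk to NF-κB, Pik3cg (0.77, adjusted p 0.0100) and Gab2 (0.68, adjusted p 0.0205), but without BMT replicate 1 or without BMT replicate 2 neither Pik3cg nor Gab2 passed, nor did Gab2 without the T-labelled library (limma adjusted p 0.0510 to 0.229 over these fits). Against Mrc1+ macrophages 12 of 24 passed, where 31.5% of all genes did, 8 lower and 4 higher, among them Rac2 (-2.42, limma adjusted p 4.54e-10), Prkcd (-1.80) and Sh3bp2 (-1.33) lower and Card9 (2.25), Pik3cg (0.98) and Btk (0.72) higher. Migrating against resident mLC gave 9 of 24, where 20.1% of all genes passed, with Rac2 (1.92, limma adjusted p 2.15e-06), Prkcd (1.34) and Pik3r1 (1.24) higher and Card9 (-2.53, adjusted p 2.84e-06), Was (-1.11) and Plcg2 (-1.04) lower. Pik3r1, Was and Plcg2 did not pass without BMT replicate 1 or without BMT replicate 2 (limma adjusted p 0.0533 to 0.366).

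Of the 11 genes of inhibitory signalling, all 11 were tested. Between resident mLC and Mono 3 of 11 passed limma's test, near the 32.7% of all genes, Dok2 lower (-2.59, adjusted p 1.74e-09) and Dok3 (2.18, adjusted p 8.32e-09) and Ubash3b (1.01, adjusted p 8.38e-05) higher, with a list median of 0.16. Dok2 and Dok3 are related adaptors that dampen receptor kinases, so these relatives moved in opposite directions. Inpp5d, which encodes the SHIP1 phosphatase recruited by the Fcgr2b product, was among the 8 that did not pass. Against Mrc1+ macrophages 6 of 11 passed, where 31.5% of all genes did, 4 higher and 2 lower, among them Dok3 (0.99), the phosphatase gene Ptpn6 (0.74) and Ubash3b (0.71) higher and Dok2 (-2.18) and the ubiquitin ligase gene Cblb (-0.83) lower, of which Ubash3b did not pass without BMT replicate 1 or 2 and Cblb without BMT replicate 2 or 3 (limma adjusted p 0.0634 to 0.0950). In migrating against resident mLC 6 of 11 passed, where 20.1% of all genes did, with Cblb (1.87) and Dok2 (1.13) higher and Dok3 (-3.21), Ubash3b (-1.78) and Ptpn6 (-1.31) among the 4 lower, and Dok2 did not pass without BMT replicate 2 (limma adjusted p 0.240). Of these 11 genes, 3 passed for Mrc1+ macrophages against Mono, 1 for MC and 2 for ISG monocytes. Of the 24 activating genes 1, 3 and 1 passed, with Rac2 lower in all 3 comparisons (-1.04, -1.05 and -1.07). Over all genes, 7.86, 7.14 and 2.38% passed in the same order. Inpp5d, higher in Mrc1+ macrophages, did not pass with any 1 library left out. Ptpn6, lower in Mrc1+ macrophages and MC, did not pass without BMT replicate 1 or 2, nor did Dok2 and Dok3 in ISG monocytes. Lyn (-0.87, limma adjusted p 0.0303) and Syk (-0.81, adjusted p 0.00320), the kinases that start the signal, were lower in MC. Neither passed without BMT replicate 1 or 2, nor Lyn without the T-labelled library, and Rac2 did not pass in MC without BMT replicate 2 or in ISG monocytes without BMT replicate 1 or 2 (limma adjusted p 0.0555 to 0.451 over these fits).

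Among other adaptor genes, Tyrobp, which encodes DAP12, was lower in resident mLC than in Mono (-0.64, limma adjusted p 0.00365). Tyrobp was also lower than in Mono in MC (-0.75, limma adjusted p 0.0100) and in Mrc1+ macrophages (-0.57, adjusted p 0.0315). Neither of these falls passed without BMT replicate 1 or 2. Between resident mLC and Mrc1+ macrophages Tyrobp did not pass. For Hcst, the level of resident mLC was below that of Mrc1+ macrophages (-0.57, limma adjusted p 0.0363). Hcst did not pass with any 1 BMT replicate left out (limma adjusted p 0.0984 to 0.171). Of 12 other Fc receptor genes, only Trim21, the cytosolic antibody receptor, passed the filter on low values, and it passed limma's test in 0 of 7 comparisons. Trim21 stood at 0.180 ± 0.0829 CP10K in Mono and 0.108 ± 0.0683 in resident mLC (SD, n = 4). The Fc receptor-like gene Fcrls had 44, 79 and 32 UMIs in BMT replicates 1 to 3 and 53 in the T-labelled library. Fcrla had 94, 295, 13 and 23 in the same order, Fcrlb 145, 271, 7 and 29, and Fcmr, the IgM receptor, 15, 121, 1 and 1. Fcer2a, Fcrl1 and Fcrl5 had at most 11 UMIs in any donor library. In the host library Fcer2a, the low-affinity IgE receptor, had 37 UMIs, Trim21 had 60, and Fcrlb, Fcrl5, Fcrl6, Fcamr and Pigr had 3 to 6. Ms4a2 has no donor or host value here.

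The T-labelled donor library was set against the 3 BMT libraries on the mean over Mono, Mrc1+ macrophages and resident mLC, the clusters with at least 20 cells in all 4 libraries. No member passed limma's test, as did 0 of all genes (0% of 7267, with 358 at an unadjusted p under 0.05), where a spread like that of the BMT libraries is assumed for the single T-labelled one. Of the members, 2 had an unadjusted p under 0.05, against 4.93% of all genes. Fcgrt differed by 0.82 (SE 0.35, limma adjusted p 0.930) and Fcgr4 by -0.66 (SE 0.27, adjusted p 0.930). For 5 of the 6 members the T-labelled library lay outside the range of the 3 BMT libraries, all but Fcer1g, as it did for 51.5% of all genes. Fcgr2b differed by -0.46 (limma adjusted p 0.941), Fcgr1 by 0.26, Fcer1g by 0.12 and Fcgr3 by 0.08. The short library names in the labels pair BMT replicate 1 with 2 and BMT replicate 3 with the T-labelled library, and no label says whether these pairs are the study's separate sorting experiments. In Mono, Fcgrt and Fcgr2b split along these names, with BMT replicate 3, which carries the BMT label, beside the T-labelled library. The comparison over all 4 libraries mixes label and name pair, since the other pair holds no T-labelled library. Against BMT replicate 3 alone the differences, which have no test, were 0.45 for Fcgr1, 0.11 for Fcgr3, -0.73 for Fcgr4, 0.13 for Fcer1g, -0.31 for Fcgr2b and 0.35 for Fcgrt.

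The host library held UMIs of Fcgr2b and few of Fcgr1 or Fcgr3. The host table was normalized apart from the donor table and has no replicate, so its values stand side by side with the donor values and have no test. Fcgr2b had 689 UMIs, and its mean was 2.10, 1.55, 1.81 and 0.821 CP10K in host clusters 1 to 4, which held 276, 170, 161 and 90 cells. The summed level of Cd207, Epcam and Mfge8 in these clusters was 10.0, 48.3, 15.0 and 30.4 CP10K, and cluster 4 also held maturation markers at 29.5. In host clusters 5 to 7, with 43, 23 and 18 cells, Fcgr2b was at 0.0265, 0.326 and 0.199 CP10K. Fcgr1 had 3 UMIs in the whole host library and Fcgr3 had 34, of which 20 were in cluster 2. In that cluster Lyz2 and Ly6c2, monocyte markers, also had 18 of the library's 21 UMIs, and the part of such cells in the Fcgr3 count was not tested. Of the thinned host cells with an Fcgr2b UMI, 153 of 156 held no UMI of Fcgr1 or Fcgr3. Such a UMI was held by 8 of all 603 thinned host cells.

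Fcer1g was uneven in the host. Its mean was 0.426, 3.88, 1.01 and 1.19 CP10K in clusters 1 to 4, 0.295 in cluster 5 and 0.195 in cluster 7, while cluster 6 was at 21.7. Cluster 6 held the T cell markers Cd3e, Cd3d, Cd3g and Trac at 139 CP10K and the Langerhans markers at 0.651, so its 23 cells went against the sort label, and all 23 held Fcer1g. Some T cells of mouse epidermis are known to use the FcRγ chain. Among the other clusters, leaving out every cell with a T cell marker UMI gave 3.90 CP10K in cluster 2, 0.432 in cluster 1 and 0.213 in cluster 5, which held keratinocyte markers at 349 CP10K. In cluster 2, 60 of 170 cells held Fcer1g. Resident mLC of the donor libraries stood at 12.9 to 15.6 CP10K. Fcgrt had 97 UMIs in the host, at means of 0.0854 to 0.490 CP10K over the 7 clusters.

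**Figure D5:**
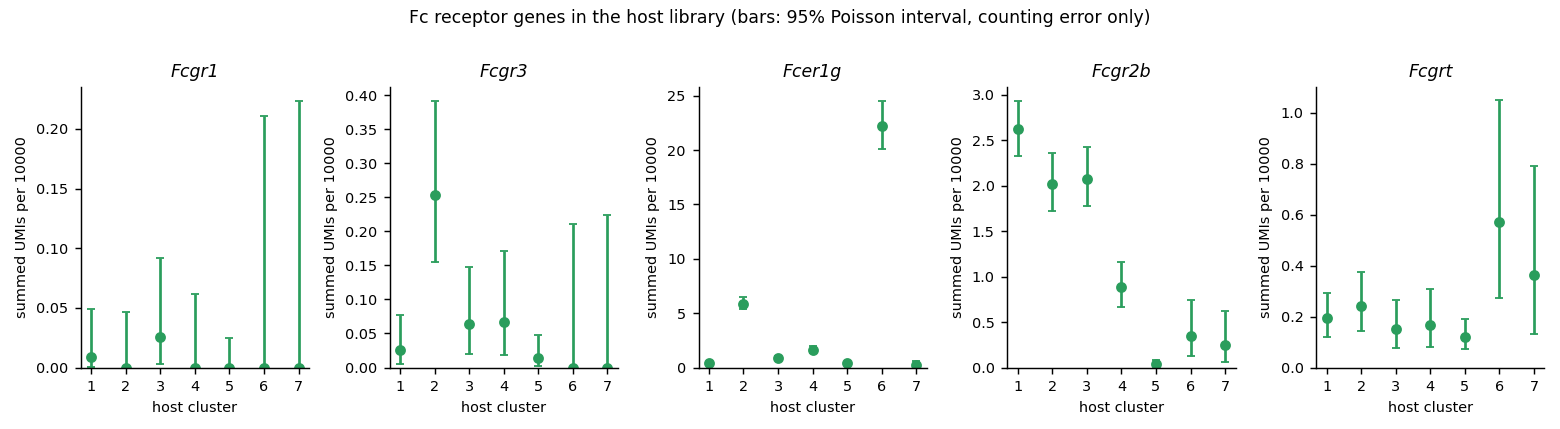
Summed UMIs per 10000 of 5 Fc receptor genes in the 7 clusters of the single host library (linear axes from 0, separate scale for each gene); bars are exact 95% Poisson intervals, which cover counting error only. Fcer1g is highest in cluster 6, which held T cell markers, and Fcgr2b is highest in clusters 1 to 3.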

How the data were processed

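Single-cell RNA of 7 libraries of mouse epidermis was deposited by the authors as natural log values, ln of 1 plus UMIs per 10000 UMIs of the cell, made with kallisto, bustools and Seurat on GRCm38 per the labels. The mitochondrial column deposited by the authors was in percent. The authors removed likely doublets, and none was looked for again. Undoing the log gave whole UMIs for 100% of values (tolerance 0.001), and in a typical donor cell the listed genes made up 91.3% of all UMIs.

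CP10K values were averaged over the cells of each library and cluster with at least 20 cells (27 means). Every gene averaging 0.1 CP10K or more entered a limma 3.58.1 fit (trend, robust by statmod 1.5.0, library as block, R 4.3.3) of log2(CP10K + 0.1). The balance was tested with an exact permutation over libraries. Shares used cells thinned to 2000 UMIs, and intervals are 95% Poisson intervals of counting error only. A count of 0 allows up to 3. The members, lists and tests were chosen with earlier results of these data known. The text names all members, other listed Fc receptors, up to 3 passing list genes per direction and the 3 most like genes of each member. The fits were tried on simulated counts drawn without differences between libraries. Such counts cannot show how often calls are false under the real spread between libraries. Scripts ran in Python 3.11.15 (pandas 2.3.3, NumPy 2.4.6, SciPy 1.17.1), with figures from matplotlib 3.10.9. Sequences and positions came from RefSeq tables of GRCm38.p6, where 7 of 7 members matched by symbol.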

Additional observations from a re-analysis of the deposited data

Results flagged for a closer look

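The keratinocyte libraries, which entered no comparison, held UMIs of Fc receptor genes above the 3 that a count of 0 allows. Fcgr3 had 5 UMIs in the BMT library and 11 in the BMT + T cells library, and Fcer1g had 12 and 42, each in 12 cells. Fcgrt had 100 and 114 UMIs, in 3.42 and 4.05% of cells. Fcgr1, Fcgr2b and Fcer1a had 0 UMIs in both, and Fcgr4 had 0 and 1. The source of these UMIs was not tested.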

How the results depend on the processing

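The direction of the balance held in 14 of 14 alternatives, and 373 of 424 alternative values of the members kept direction and side of the threshold, as did 420 of 529 of the list genes. With a log2 difference above 2 required, the number of members passing was 3 for resident mLC against Mono and 3 against Mrc1+ macrophages, 0 for Mrc1+ macrophages against Mono and 1 for MC. For migrating mLC it was 2 with at least 50 cells and 2 with voom. For Mrc1+ macrophages against Mono it ran from 0 to 2 with a library left out. For ISG monocytes it was 1 with a pseudocount of 1 and 1 with at least 50 cells, 2 with log means and 2 with voom, and 0 to 1 with a library left out. The cause of these changes was not tested.

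Small differences turned sign, none of them past the threshold. Fcgrt between resident mLC and Mono was 0.38 with voom, -0.38 to 0.29 with a library left out, and 0.40 and 0.79 within BMT replicates 1 and 2, an alternative chosen after seeing the data. Fcgrt in ISG monocytes was 0.32 with voom and -0.65 to 0.24 with a library left out. Fcgr2b in migrating mLC was -0.10 with log means and -0.021 with voom. In Mrc1+ macrophages against Mono Fcgr2b was -0.13 with log means and -0.0081 to 0.19 with a library left out, and in MC -0.23 to 0.10. Fcer1g in migrating mLC was -0.22 with log means and -0.079 to 0.073 with a library left out, and Fcgr1 in ISG monocytes -0.21 to 0.17. Between labels, Fcer1g was -0.0017 to 0.19 and Fcgr3 -0.12 to 0.091 with a library left out. Trim21 against Mrc1+ macrophages was 0.0058 with log means, 0.24 with voom and -0.34 to 0.16 with a library left out, and for Mrc1+ macrophages against Mono -0.59 to 0.021. Trim21 between labels was -0.0088 with a pseudocount of 1, -0.26 with at least 50 cells, -0.0032 with log means and -0.14 to 0.10 with a library left out.

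Among all genes, resident mLC against Mono gave 2375 calls, 3857 with voom, 295 with a log2 difference above 2, 1541 without BMT replicate 1 and 1293 without BMT replicate 2. From the limit of 2 to voom, with the main count between, the calls were 255, 2292 and 3971 for resident mLC against Mrc1+ macrophages, 190, 1464 and 3758 for migrating mLC, 30, 571 and 1169 for Mrc1+ macrophages against Mono, 67, 519 and 1401 for MC and 27, 173 and 588 for ISG monocytes, and without BMT replicate 2 these were 1384, 345, 134, 131 and 33. The labels gave 0 calls, 1 without BMT replicate 1 and 141 without BMT replicate 3. Depth limits the lowest levels, such as Fcgr4 in resident mLC. Between labels, no paired analysis was possible because only 1 donor library carries the T label.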
